A study of Mus musculus with 8 samples.

Results

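The constitutive proteasome genes are the standing parts list of the 26S proteasome, and they were compared here between brain and uterus of pregnant mice. Members were all genes of the count table whose symbol is Psma, Psmb, Psmc, Psmd, Psme, Psmf or Psmg followed by a digit, without the inducible immunoproteasome genes Psmb8, Psmb9 and Psmb10. This rule uses no measured value and gave 47 of 19884 genes. One of them, Psmc3ip, encodes a protein of meiotic recombination that is named as a binding partner of the ATPase Psmc3 and is no proteasome subunit. Counts over all members include it and are also given without it. Both organs came from adult C57BL/6J females aged 6 to 10 weeks, with no treatment, which had mated with fertile males. The day of the vaginal plug was day 1, the organs were taken on day 4 of gestation, and blastocysts in the uterine flushing showed that each mouse was pregnant. Whole brains and whole uteri of 4 mice each gave 4 libraries per organ of ribosomal-RNA-depleted total RNA. The organ is the only difference that the labels give between the groups, and no non-pregnant group is part of the comparison.

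Cells mark proteins for destruction with chains of ubiquitin, and the 26S proteasome unfolds and cuts the marked proteins. Its 20S core is a barrel of stacked rings: outer alpha rings gate the entry, and inner beta rings hold the cutting sites. The 19S regulatory particle caps the barrel: its lid and base bind ubiquitin, remove it and feed the unfolded chain into the core with a ring of ATPases. Dedicated chaperones assemble these parts, and other caps such as PA28 and PA200 can take the place of the 19S particle.

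The libraries held 35394603 to 47790178 counted reads. Levels are given as CPM, read counts scaled to the size of their library by trimmed means (TMM), so that the middle of all tested genes lay at a log2 fold change of 0.01, uterus over brain. The 3 reads taken as the floor of detection correspond to 0.0692 to 0.0810 CPM. Neuron markers summed to 6993 to 7186 CPM in brain and 9.44 to 14.8 CPM in uterus, and stroma markers to 116 to 125 CPM and 8340 to 10342 CPM, as the organ labels say. Proliferation markers (6 of 6 higher in uterus) summed to 48.8 to 70.0 CPM in brain and 602 to 995 CPM in uterus, with none at 0 in either organ. Their part in the results below was not tested. The organs are mixtures of cell types, in which fewer cells of a type and less RNA per cell cannot be told apart.

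Of the 46 members with enough reads to test, 32 were higher in uterus, 6 were higher in brain and 8 did not pass the test (edgeR quasi-likelihood, adjusted p under 0.05). Without Psmc3ip, 31 of 45 were higher in uterus. Most genes differ between these organs: 87.0% of the 16074 tested genes passed, 43.5% toward uterus and 43.6% toward brain. The members' differences were small. Only 7 members (6 without Psmc3ip), all higher in uterus, passed a test against a 2-fold change, which 23.5% of all genes passed toward uterus and 25.8% toward brain. The 7 include Psma8, which had few reads in either organ. A gene was taken to stand at like levels where the whole 95% interval of its difference fell between -0.5 and 0.5 on the log2 scale. This held for 21 members, and for 16.8% of all genes. The median log2 fold change was 0.40 over the tested members and 0.38 without Psmc3ip. In 38 members (37 without Psmc3ip) the 4 libraries of one organ lay wholly above those of the other, as in 84.1% of all genes. Together the members held 0.317% of all counts in brain and 0.459% in uterus.

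These counts differed between the parts of the complex. Of the 14 genes of the 20S rings, 13 were higher in uterus and 1 was higher in brain, with a median log2 fold change of 0.51. Of the 17 genes of the 19S particle, 7 were higher in uterus, 3 were higher in brain and 7 did not pass, with a median of 0.04. In all, 15 of the 17 genes of the 19S particle stood at like levels, against 2 of the 14 ring genes. A gene at like levels can also have passed the test of difference, as Psmb7 and Psmc1 did. No gene of either set passed the 2-fold test. Among the 3811 genes with mean levels in the range of these subunits, the median was -0.29 and 903 stood at like levels. Scaling by upper quartiles or by library size alone moved all genes up by about the same amount, to an all-gene median of 0.27. With them the 20S median was 0.77 and the 19S median 0.30, and 13 of the 17 genes of the 19S particle passed toward uterus and 1 toward brain. At like levels were then 10 of the 17 genes of the 19S particle and 1 of the 14 ring genes, and 5 ring genes under relative log scaling. The gap between the medians was 0.47 under each of these scalings.

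**Figure D1:**
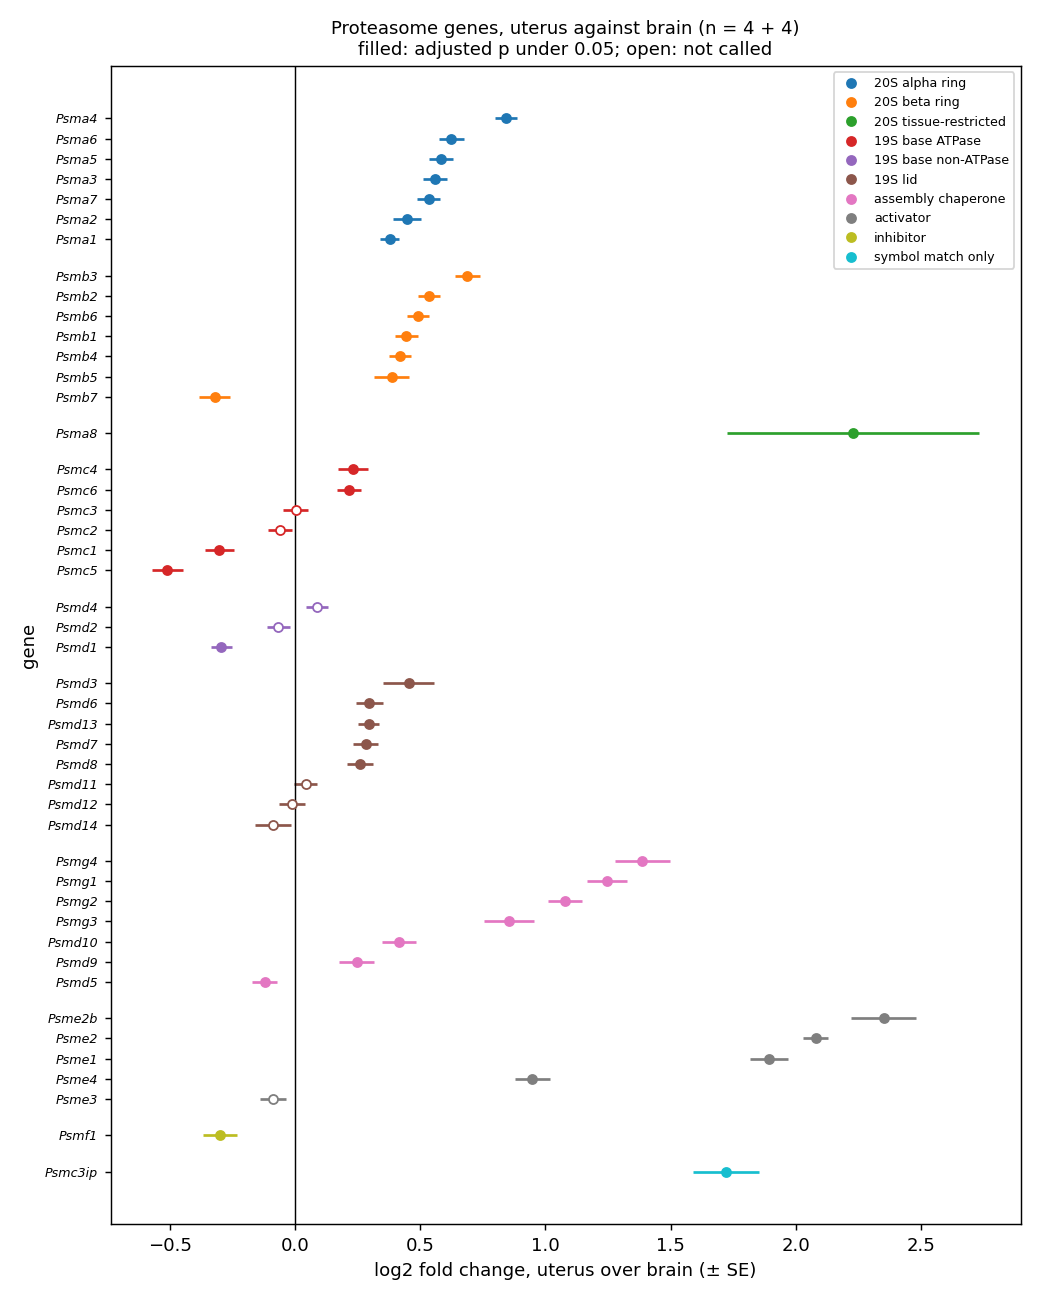
Log2 fold change of each tested member, uterus over brain, with its standard error, grouped by role; filled points passed the test and open points did not. All 7 alpha ring genes and 6 of 7 beta ring genes lie to the right of 0, the 19S genes lie on both sides of it, and Psme1, Psme2 and Psme2b lie near 2.

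The alpha ring, whose subunits frame the gated entrance of the core, was higher in uterus in all 7 genes, by 0.38 to 0.84 on the log2 scale. Psma4 (chromosome 9, 54950790 to 54958030, plus strand, GRCm38) showed the widest difference of the ring. It stood at 73.7, 76.7, 71.8 and 75.0 CPM in brain libraries 1 to 4 and 139, 128, 132 and 134 CPM in uterus libraries 1 to 4, a mean of 74.3 ± 2.09 against 133 ± 4.72 (SD, n = 4) and a log2 fold change of 0.84 ± 0.04 (SE; adjusted p = 2.7e-08, edgeR). Psma1 had the narrowest, with 85.4, 84.9, 88.4 and 87.2 CPM in brain and 112, 113, 111 and 113 in uterus, a log2 fold change of 0.38 ± 0.04 (adjusted p = 4.3e-06). Even in Psma1 the highest brain library lay below every uterus library. The ring genes between them were Psma2 (from a mean of 87.2 CPM in brain to 119 in uterus), Psma7 (85.7 to 124), Psma3 (99.4 to 147), Psma5 (58.7 to 87.9) and Psma6 (86.2 to 133). Psma5 has a near-identical pseudogene with its own counts, Gm8394, at 4.80 CPM in brain and 6.73 CPM in uterus, well below Psma5 itself. Psma3 also has near-identical pseudogene copies, so its values carry that uncertainty.

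The beta ring holds the cutting sites. Its noncatalytic genes were all higher in uterus: Psmb3 by 0.69 ± 0.05, Psmb2 by 0.54 ± 0.04, Psmb1 by 0.44 ± 0.05 and Psmb4 by 0.42 ± 0.04 on the log2 scale. Psmb3 stood at 49.3, 54.6, 54.2 and 50.6 CPM in brain libraries 1 to 4 and 86.1, 81.7, 84.3 and 84.0 CPM in uterus libraries 1 to 4 (adjusted p = 3.3e-07), with no overlap between the organs.

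The 3 catalytic genes did not move together. Psmb5, the chymotrypsin-like site, stood at 52.7, 54.6, 58.1 and 51.9 CPM in brain libraries 1 to 4 and 72.6, 62.2, 72.8 and 76.0 CPM in uterus libraries 1 to 4, a log2 fold change of 0.38 ± 0.07 (adjusted p = 0.00041). Psmb6, the caspase-like site, stood at 74.0, 79.3, 75.7 and 73.0 CPM in brain and 105, 103, 107 and 109 in uterus, a log2 fold change of 0.49 ± 0.04 (adjusted p = 2e-06). Both were lower in every brain library than in any uterus library. Psmb7 (chromosome 2, 38588036 to 38644087, minus strand, GRCm38), the trypsin-like site, went the other way. Its values were 67.3, 75.9, 66.8 and 68.7 CPM in brain libraries 1 to 4 and 54.6, 53.5, 54.1 and 60.9 CPM in uterus libraries 1 to 4, a mean of 69.7 ± 4.22 against 55.8 ± 3.46 (SD, n = 4), which is 1.25-fold higher in brain (log2 fold change -0.32 ± 0.06, adjusted p = 0.00068, interval -0.45 to -0.19). This call was lost under upper-quartile scaling (-0.07) and library-size scaling (-0.06). Within a library, where no scaling enters, Psmb7 reads per Psmb6 read were 0.910, 0.957, 0.882 and 0.941 in brain libraries 1 to 4 and 0.520, 0.520, 0.504 and 0.558 in uterus libraries 1 to 4. The ratio was 0.923 ± 0.0333 in brain and 0.525 ± 0.0230 in uterus (SD, n = 4), and no library of one organ reached the other's range. The Psmb7 exons overlap those of Nek6 on the opposite strand over 405 bases, 11.8% of the Psmb7 exon length, and Nek6 stood at 31.4 CPM in brain and 54.0 CPM in uterus. Whether the counting used strand is not given in the sources used here, and the part of these reads in the Psmb7 value was not tested. Psmb5 has a near-identical pseudogene that adds uncertainty to its value.

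**Figure D2:**
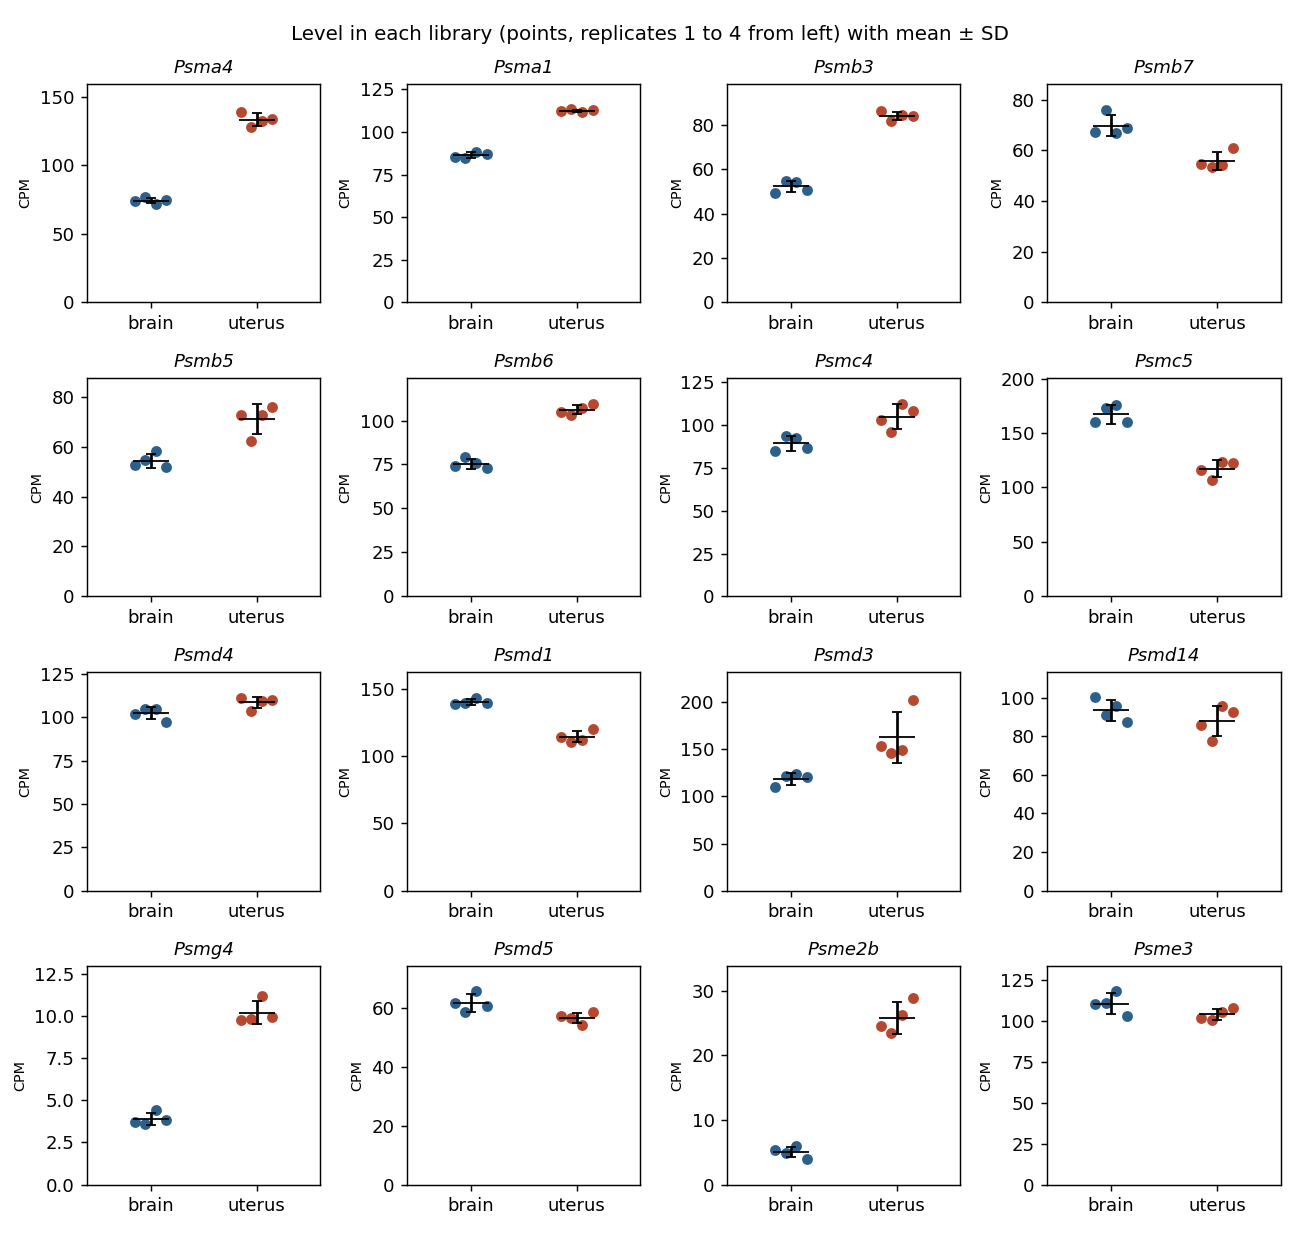
CPM in each of the 4 libraries per organ (points) with mean ± SD for the members with the highest and lowest change in each role group and the catalytic subunits. Psma4, Psmb3 and Psme2b separate widely, Psmb7, Psmc5 and Psmd1 are higher in brain, and uterus replicate 4 stands apart for Psmd3.

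Promoter sequences bear on such joint differences only as a description of letters. RefSeq windows (GRCm38.p6) from 250 bases before to 50 after the start site were matched for 39 of the 47 members and compared with 26742 genes. Shares are of genes, and a gene with several start sites was counted where any of its windows held the letters. The letters TGACNNNGC, the core of the antioxidant response element bound by Nfe2l1 and Nfe2l2, were searched on both strands. They stood in 6 of 39 members (15.4%) and in 14.0% of all genes. Among the 11 matched ring genes they stood only in Psmb5 and Psmb6. CCAAT, bound by NF-Y, stood in 6 of the 11 ring genes (54.5%), in 4 of 14 genes of the 19S particle (28.6%) and in 41.0% of all genes. TATAAA stood in 3 of 39 members (7.69%) and in 15.6% of all genes. The 250 bases before the start are shown for the catalytic genes with the first motif and for Psma1 with CCAAT on each strand, the match in capitals (ATTGG is CCAAT read from the other strand).
Psmb5: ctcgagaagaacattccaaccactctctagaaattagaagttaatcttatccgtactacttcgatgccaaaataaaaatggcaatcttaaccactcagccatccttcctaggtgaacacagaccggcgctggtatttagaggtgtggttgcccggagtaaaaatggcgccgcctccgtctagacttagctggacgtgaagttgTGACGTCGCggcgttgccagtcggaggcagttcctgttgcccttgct
Psmb6: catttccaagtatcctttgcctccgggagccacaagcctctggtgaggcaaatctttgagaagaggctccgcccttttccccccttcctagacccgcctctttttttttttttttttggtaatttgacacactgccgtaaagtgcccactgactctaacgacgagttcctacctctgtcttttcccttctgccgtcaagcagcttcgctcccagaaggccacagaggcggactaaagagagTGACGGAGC
Psma1: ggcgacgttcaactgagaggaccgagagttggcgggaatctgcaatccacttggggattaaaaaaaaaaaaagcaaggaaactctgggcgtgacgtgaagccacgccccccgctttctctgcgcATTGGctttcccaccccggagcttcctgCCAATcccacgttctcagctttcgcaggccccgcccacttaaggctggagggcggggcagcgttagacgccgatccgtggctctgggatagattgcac
These lie at chr14:54617996-54618245 (minus strand) for Psmb5, chr11:70525107-70525356 (plus strand) for Psmb6 and chr7:114276117-114276366 (minus strand) for Psma1. Counted back from the start site, the match ran from -47 to -39 in Psmb5 and from -9 to -1 in Psmb6.

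The base of the 19S particle holds a ring of 6 ATPases, which unfold the substrate and thread it into the core. These did not share a direction: 2 were higher in uterus, 2 were higher in brain and 2 did not pass, with a median log2 fold change of -0.03. Psmc5 (chromosome 11, 106256154 to 106263120, plus strand, GRCm38) had the widest difference toward brain of the tested members, at 159.8, 173, 176 and 159.8 CPM in brain libraries 1 to 4 and 116, 107, 124 and 122 CPM in uterus libraries 1 to 4. Its mean of 167 ± 8.54 CPM in brain was 1.42-fold that in uterus, 117 ± 7.78 (SD, n = 4; log2 fold change -0.51 ± 0.06, adjusted p = 1.9e-05). Psmc5 was the one member that stayed higher in brain under every scaling. Psmc1 was also higher in brain (139 CPM against 113, -0.30 ± 0.06), a call lost when scaled by upper quartiles or library size (-0.05 in each). Psmc4 was higher in uterus, with 84.6, 93.5, 92.3 and 86.3 CPM in brain and 103, 96.0, 112 and 108 in uterus (log2 fold change 0.23 ± 0.06, adjusted p = 0.0044). Psmc6 was also higher in uterus (0.21 ± 0.05). Psmc2 (-0.06, interval -0.16 to 0.04) and Psmc3 (0.00, interval -0.10 to 0.11) stood at like levels. With upper-quartile and library-size scaling both passed toward uterus, Psmc2 at 0.20 and Psmc3 at 0.26 in each. Psmc3 overlaps Slc39a13 on the opposite strand over 8.25% of its exon length. Reads of Psmc5 per read of Psmc6, another ATPase of the same ring, were 1.38, 1.61, 1.63 and 1.57 in brain libraries 1 to 4 and 0.924, 0.868, 0.987 and 0.957 in uterus libraries 1 to 4. That ratio went from 1.55 ± 0.114 to 0.934 ± 0.0512, with no overlap.

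The other base subunits are the scaffolds Psmd1 and Psmd2 and the ubiquitin receptor Psmd4. Psmd1 was higher in brain, at 139, 139, 143 and 139 CPM in brain libraries 1 to 4 and 114, 111, 112 and 120.0 CPM in uterus libraries 1 to 4 (log2 fold change -0.29 ± 0.04, adjusted p = 8.2e-05), a call lost when scaled by upper quartiles or library size (-0.04 in each). Psmd4 stood at 102, 104, 105 and 97.4 CPM in brain and 111, 104, 109 and 110.2 in uterus (log2 fold change 0.09 ± 0.04, adjusted p = 0.088, interval -0.01 to 0.18), with overlapping libraries. The test of Psmd4 was passed toward uterus with either of these scalings (0.34 in each), with a minimum mean of 10 CPM (0.11) and without uterus replicate 2 (0.11). Psmd2 did not pass (243 CPM against 232, -0.07 ± 0.05, adjusted p = 0.19), but with relative log scaling and in DESeq2 it passed toward brain (-0.11 in each) and with upper-quartile and library-size scaling toward uterus (0.19 in each).

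The lid carries the deubiquitinase Psmd14, which cuts the ubiquitin chain from the substrate. Of its 8 genes, 5 were higher in uterus and 3 did not pass, with a median log2 fold change of 0.27. Psmd3, a scaffold of the lid, stood at 109.8, 122, 124 and 120.3 CPM in brain libraries 1 to 4 and 153, 146, 149 and 203 CPM in uterus libraries 1 to 4 (log2 fold change 0.45 ± 0.10, adjusted p = 0.0019). Uterus replicate 4 stood far above the others for this gene, and without it the log2 fold change was 0.35 (adjusted p = 0.00016). The others higher in uterus were Psmd6 (0.30 ± 0.05), Psmd13 (0.29 ± 0.04), Psmd7 (0.28 ± 0.05) and Psmd8 (0.26 ± 0.05). Psmd13 overlaps Sirt3 on the opposite strand over 10.1% of its exon length, and Sirt3 was at 41.8 CPM in brain and 9.73 CPM in uterus. Psmd14 itself stood at 100.1, 91.0, 95.6 and 87.4 CPM in brain and 85.9, 77.8, 95.8 and 92.4 in uterus, with overlapping libraries (log2 fold change -0.09 ± 0.07, adjusted p = 0.27, interval -0.25 to 0.07). Psmd11 (0.04 ± 0.05) and Psmd12 (-0.01 ± 0.05) did not pass, but did toward uterus when scaled by upper quartiles or library size (0.30 and 0.24 in each). Psmd11 has near-identical noncoding copies. The members of the lid other than Psmd3 stood at like levels.

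Shfm1, the symbol the table uses for the small lid subunit Sem1, falls outside the rule for members but sits in the same particle. It was at 55.4, 52.2, 52.8 and 50.5 CPM in brain libraries 1 to 4 and 144, 142, 134 and 139 CPM in uterus libraries 1 to 4 (log2 fold change 1.41 ± 0.05, adjusted p = 7.5e-10), past the 2-fold test. That difference was wider than that of any of the 17 members of the 19S particle.

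Levels of different genes were compared as CPM per kilobase of exon. The mean over the 14 ring genes was 37.0 ± 0.867 in brain and 52.6 ± 1.41 in uterus (SD, n = 4), and the mean over the 17 genes of the 19S particle was 39.9 ± 1.20 and 39.4 ± 1.47. The ring mean divided by the 19S mean in each library was 0.940, 0.925, 0.917 and 0.933 in brain libraries 1 to 4 and 1.35, 1.36, 1.33 and 1.32 in uterus libraries 1 to 4. All brain libraries thus lay below 1 and all uterus libraries above it. With lengths of coding transcripts in place of all exons the ratio was 1.05 in brain and 1.45 in uterus, so the side of 1 in brain depends on the length used, while the order of the organs does not. Within the core, the alpha mean over the beta mean by exon length was 0.947 ± 0.0313 in brain and 1.06 ± 0.0126 in uterus. By coding transcript length the alpha mean lay below the beta mean in both organs, so the side of 1 in uterus depends on the length used. Within the 19S particle, the lid mean over the base mean by exon length was 0.551 ± 0.0129 in brain and 0.698 ± 0.0125 in uterus.

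Psmc5 had the highest level per kilobase of the 31 ring and 19S genes in brain, 119.9 ± 6.13 (SD, n = 4), and came first with coding transcript lengths too. Next in brain by exon length came Psmc1 (72.1 ± 4.93) and Psma6 (69.9 ± 3.27), which did not differ beyond their spread, whereas by coding transcript length Psmb6 (94.6) and Psma7 (93.8) came next. In uterus Psma6 came first by exon length, at 108 ± 4.54, ahead of Psmc5 at 84.2 ± 5.58 and Psmb5 at 78.9 ± 6.67, the last pair within their spread. With coding transcript lengths Psma7 led in uterus, at 136. Psmd11 was lowest in both organs with either length, at 10.9 ± 0.504 in brain and 11.2 ± 0.136 in uterus by exon length. Psmb7 was the lowest ring gene by exon length in both organs, at 20.4 ± 1.23 and 16.3 ± 1.01, but not by coding transcript length. By that length Psma2 (30.0), Psma3 (34.9) and Psma5 (47.3) lay below Psmb7 (60.1) in brain, and Psma2 (40.8) lay below it (48.1) in uterus.

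**Figure D3:**
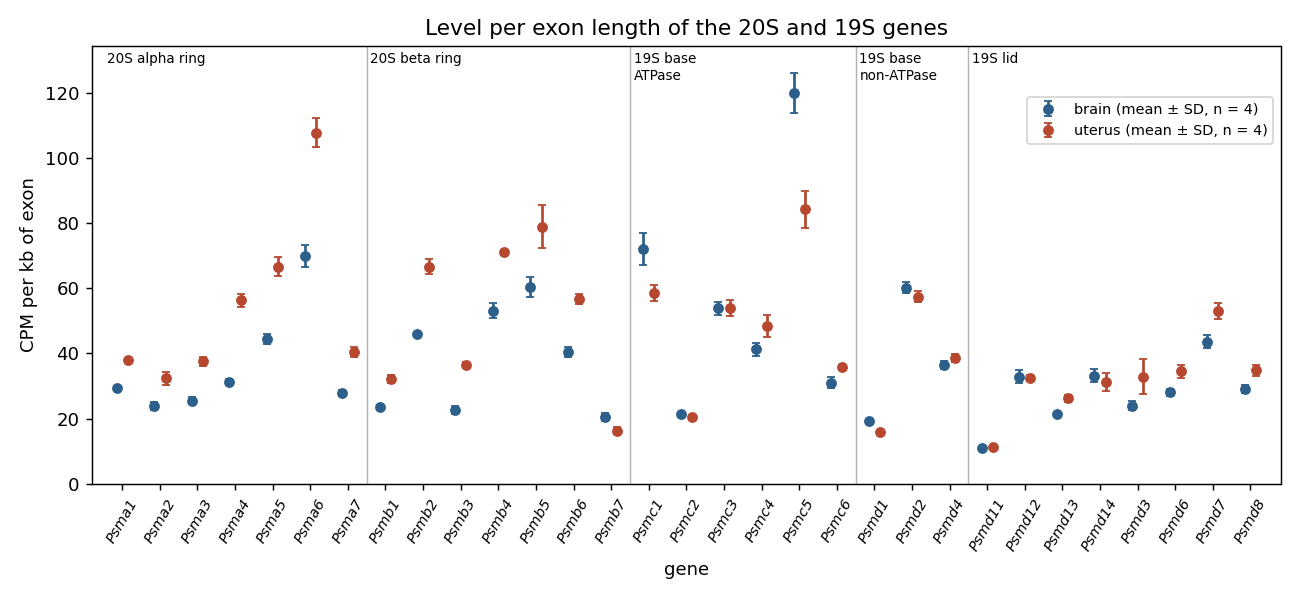
Mean CPM per kilobase of exon (± SD, n = 4) of each ring and 19S gene in brain and in uterus. Psmc5 tops the brain values near 120 and Psma6 the uterus values near 108, and the uterus points lie above the brain points in every ring gene but Psmb7.

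Assembly of the core starts with the chaperone pairs of Psmg1 with Psmg2 and of Psmg3 with Psmg4, which build the alpha ring. All 4 were higher in uterus, by 0.85 (Psmg3) to 1.39 (Psmg4) on the log2 scale. Psmg4 stood at 3.72, 3.60, 4.44 and 3.81 CPM in brain libraries 1 to 4 and 9.77, 9.83, 11.2 and 9.95 CPM in uterus libraries 1 to 4 (log2 fold change 1.39 ± 0.11, adjusted p = 7.3e-07). Psmg1 went from 10.9 ± 0.833 CPM in brain to 25.8 ± 1.35 in uterus (SD, n = 4). Psmg1 and Psmg4 passed the 2-fold test, whereas Psmg2, from 16.1 ± 1.03 to 33.9 ± 1.83 CPM (log2 fold change 1.08 ± 0.07), did not (adjusted p of that test = 0.096). The log2 fold changes of all 4 lay above those of the alpha ring genes, narrowly so for Psmg3 (0.85) against Psma4 (0.84), and the difference was not tested.

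The chaperones of the 19S base moved less. Psmd10, also known as gankyrin, was higher in uterus by 0.41 ± 0.07 and Psmd9 by 0.25 ± 0.07. About 25.5% of the Psmd9 exon length overlaps a noncoding gene on the opposite strand, Gm26745. Psmd5 was slightly higher in brain, at 61.6, 58.7, 65.7 and 60.6 CPM in brain libraries 1 to 4 and 57.3, 56.5, 54.4 and 58.5 CPM in uterus libraries 1 to 4 (log2 fold change -0.12 ± 0.05, adjusted p = 0.045). That call was lost with all but 1 of the single libraries left out, and under upper-quartile scaling it passed in the other direction (0.13). Pomp, the chaperone that matures the beta ring and lies outside the rule, was higher in uterus by 0.19 ± 0.04.

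The alternative caps showed the widest differences of all role groups with more than 1 tested gene: 4 of 5 were higher in uterus, 3 of them past the 2-fold test, with a median log2 fold change of 1.89. Psme1 (chromosome 14, 55578123 to 55581529, plus strand, GRCm38) and Psme2 encode PA28 alpha and beta, which form a cap that interferon induces and that opens the core for peptides. Psme1 stood at 26.5, 22.0, 21.8 and 21.7 CPM in brain libraries 1 to 4 and 83.6, 92.0, 84.7 and 81.6 CPM in uterus libraries 1 to 4, 3.71-fold higher in uterus (log2 fold change 1.89 ± 0.08, adjusted p = 3.5e-09). Psme2 stood at 16.8, 15.3, 15.8 and 15.7 CPM in brain and 66.9, 65.7, 68.8 and 67.5 in uterus, 4.23-fold higher (log2 fold change 2.08 ± 0.05, adjusted p = 8.6e-11). Psme2b, a copy of Psme2 that is 99.4% identical over 794 bases, stood at 5.37, 4.87, 5.96 and 4.00 CPM in brain and 24.5, 23.4, 26.2 and 28.9 in uterus (log2 fold change 2.35 ± 0.13, adjusted p = 4.1e-08). For each of these genes every uterus library lay far above every brain library. Reads of Psme2 and Psme2b cannot be told apart with certainty, but their sum went from 20.9 ± 1.19 CPM in brain to 93.0 ± 3.33 in uterus (SD, n = 4).

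Psme3, which encodes the nuclear cap PA28 gamma, did not pass, at 109.8, 111, 118 and 103 CPM in brain libraries 1 to 4 and 102, 101, 105 and 108 CPM in uterus libraries 1 to 4 (log2 fold change -0.09 ± 0.05, adjusted p = 0.13, interval -0.20 to 0.03). The Psme3 test was passed toward brain with relative log scaling and in DESeq2 (-0.13 in each) and without brain replicate 4 (-0.13), and toward uterus with upper-quartile and library-size scaling (0.17 in each). The sum of Psme1 and Psme2 reads per Psme3 read was 0.394, 0.337, 0.318 and 0.365 in brain libraries 1 to 4 and 1.48, 1.57, 1.46 and 1.38 in uterus libraries 1 to 4. It moved from 0.353 ± 0.0332 to 1.47 ± 0.0760, so the mix of PA28 transcripts differed between the organs whatever the scaling. Psme4, which encodes PA200, stood at 101, 89.4, 83.6 and 90.1 CPM in brain and 170.2, 164, 176 and 191 in uterus (log2 fold change 0.95 ± 0.07) and did not pass the 2-fold test. Psmf1 encodes the inhibitor PI31 and was higher in brain, with 33.8, 34.4, 36.6 and 36.0 CPM in brain and 27.3, 28.7, 32.0 and 26.3 in uterus (log2 fold change -0.30 ± 0.07, adjusted p = 0.0022), a call that both of those scalings ended (-0.04 in each).

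The core of the interferon-stimulated response element (GAAA, any 2 bases, GAAA, on either strand) was searched after the values were seen. It stood in windows of 5 of 39 members (12.8%: Psmb3, Psmd4, Psmd9, Psme1 and Psmg4) and of 4.00% of all genes. The Psme1 window is shown to the end of its match (capitals), which lies on the opposite strand 10 to 19 bases into the transcript, at chr14:55578244-55578512 (plus strand, GRCm38.p6, RefSeq).
Psme1: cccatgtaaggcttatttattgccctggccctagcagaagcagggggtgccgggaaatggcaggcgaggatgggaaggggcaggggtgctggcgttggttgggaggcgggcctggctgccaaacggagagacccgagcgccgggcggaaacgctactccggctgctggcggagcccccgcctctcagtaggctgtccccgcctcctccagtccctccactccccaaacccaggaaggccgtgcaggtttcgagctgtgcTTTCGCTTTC

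The immune beta subunits, which take the places of Psmb5, Psmb6 and Psmb7 in the immunoproteasome, were all higher in uterus. Psmb8 went from 1.78 ± 0.489 to 42.0 ± 2.02 CPM (SD, n = 4; log2 fold change 4.56 ± 0.17), Psmb9 from 1.15 ± 0.288 to 20.9 ± 2.35 (4.18 ± 0.18) and Psmb10 from 21.1 ± 2.12 to 31.6 ± 1.06 (0.58 ± 0.08). Set against the constitutive gene it replaces, Psmb8 reads per 100 Psmb5 reads were 4.10, 2.15, 3.78 and 3.05 in brain libraries 1 to 4 and 60.2, 66.9, 53.9 and 56.9 in uterus libraries 1 to 4. Psmb9 reads per 100 Psmb6 reads went from 1.52 ± 0.373 in brain to 19.8 ± 2.66 in uterus, and Psmb10 reads per 100 Psmb7 reads from 30.3 ± 2.61 to 56.8 ± 4.55. None of these ratios overlapped between the organs, and in every uterus library the constitutive gene still had more reads than its immune partner. Reads were not divided by gene length here. Exons span 1705 bases in Psmb10 and 3421 bases in Psmb7, against coding transcripts of 1311 and 1160 bases. The order of that pair per kilobase therefore depends on the length used. A list of 10 antigen processing genes was higher in uterus in all 10, each past the 2-fold test, with Nlrc5 (4.66 ± 0.23) and Tap1 (3.97 ± 0.19) furthest. Tap1 and Psmb9 share 212 exon bases on opposite strands. Leukocyte markers (6 of 8 higher in uterus, 1 higher in brain) summed to 117 to 153 CPM in brain and 283 to 356 CPM in uterus, with none at 0 in all libraries of an organ. Ptprc, the pan-leukocyte marker, stood at 7.0 CPM in brain and 72.1 CPM in uterus. The marker higher in brain was Csf1r, at 94.3 CPM in brain and 35.9 CPM in uterus (log2 fold change -1.39 ± 0.08). It had the highest brain level of the list and passed the 2-fold test. Itgam did not pass the test of difference (0.17 ± 0.24). The markers thus did not share a direction, and the part of leukocytes in the PA28 and immune subunit values was not tested.

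**Figure D4:**
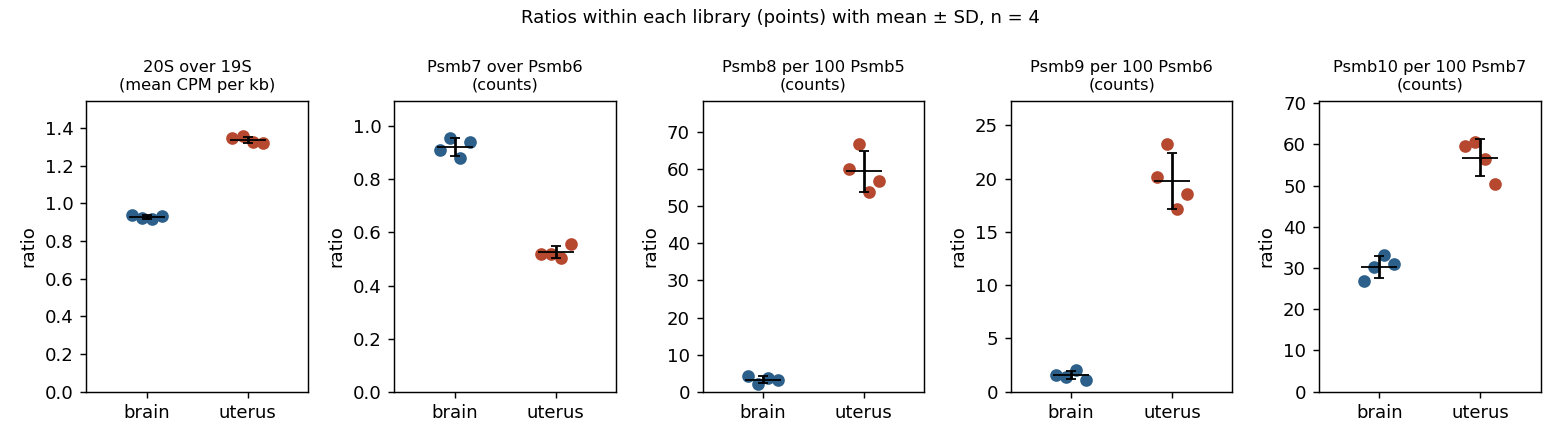
Ratios within each library (points) with mean ± SD, n = 4: 20S over 19S mean CPM per kilobase, Psmb7 over Psmb6 counts, and counts of each immune subunit per 100 counts of the constitutive subunit it replaces. No panel has overlapping organs, and Psmb7 over Psmb6 is the one ratio that is higher in brain.

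A pair of members belongs to core particles of single tissues. Psma8, known as the alpha subunit of the testis core, had 8, 24, 21 and 6 reads in brain libraries 1 to 4 and 63, 79, 101 and 28 in uterus libraries 1 to 4. These are 0.349 ± 0.201 CPM and 1.66 ± 0.790 CPM (SD, n = 4), far below Psma7, its constitutive counterpart, in both organs. The log2 fold change of Psma8 was 2.23 ± 0.50 (adjusted p = 0.0019, edgeR), past the 2-fold test. Psmb11, known as the thymus subunit, had 2, 14, 8 and 2 reads in brain and 0, 0, 1 and 0 in uterus, too few for the test. Psmc3ip, which encodes no proteasome subunit, stood at 2.67, 2.88, 2.24 and 3.24 CPM in brain and 9.59, 8.42, 9.33 and 9.07 in uterus (log2 fold change 1.72 ± 0.13, adjusted p = 6e-07). Of its exon length, 21.2% overlaps Mlx on the opposite strand, which was at 30.7 CPM in brain and 30.8 CPM in uterus.

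A further list held 13 genes with other symbols, most of them for proteins that act on or with the proteasome and not subunits. Of the 13, 3 were higher in uterus (the subunit genes Shfm1 and Adrm1 and the chaperone gene Pomp). Another 8 were higher in brain and 2 did not pass, and the median log2 fold change of the list was -0.23. Usp14, a deubiquitinase that binds the 19S particle, was at 165, 157, 168 and 152 CPM in brain and 90.1, 82.1, 91.0 and 96.3 in uterus (-0.84 ± 0.06, adjusted p = 2.5e-07). Ube3a, a ubiquitin ligase that associates with the proteasome, went from 134 CPM in brain to 76.2 CPM in uterus (-0.82 ± 0.10). Annotated transcripts of Usp14 share 2169 bases with Thoc1 (84.9 CPM in brain, 78.3 CPM in uterus) and those of Ube3a share 1804 bases with the antisense gene Snhg14, so both values carry the same doubt about strand and shared reads as Psmb7. The receptor gene Adrm1 was higher in uterus by 0.25 ± 0.07. Adrm1 has a near-identical copy with its own counts, Gm9774, at 1.74 CPM in brain and 1.57 CPM in uterus.

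Of 11 regulators of proteasome genes, 7 were higher in uterus, 3 were higher in brain and 1 did not pass, with a median of 0.25. The related transcription factors Nfe2l1 and Nfe2l2 went opposite ways. Nfe2l1, which drives proteasome genes when proteasome activity falls, stood at 373, 388, 408 and 381 CPM in brain and 218, 265, 239 and 214 in uterus (log2 fold change -0.73 ± 0.07, adjusted p = 5.4e-06). Nfe2l2, the factor of the oxidative stress response, stood at 23.1, 21.6, 23.7 and 24.1 CPM in brain and 131, 123, 128 and 141 in uterus (log2 fold change 2.50 ± 0.06, adjusted p = 7.4e-11). The organs did not overlap for either gene. Stat3 was higher in uterus (2.09 ± 0.06) and Nfyb, a subunit of NF-Y, was higher in brain (-0.27 ± 0.06), the latter lost by upper-quartile or library-size scaling (-0.01 in each). The other NF-Y subunit genes of the list did not share that direction. Nfya was higher in uterus (1.29 ± 0.04), past the 2-fold test, and Nfyc did not pass the test of difference (0.05 ± 0.06).

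The genes that supply ubiquitin and carry substrates to the proteasome were mixed. Of 8 ubiquitin and E1 genes, 2 were higher in uterus, 3 were higher in brain and 3 did not pass, with a median of -0.03. Ubb was higher in brain (470.4 CPM against 310.1, -0.60 ± 0.05), as was Uba6, an E1 enzyme (-0.37 ± 0.07, lost at -0.11 by those same scalings). Rps27a was higher in uterus (2.60 ± 0.18), but it has near-identical copies that make its value uncertain. Of 11 tested shuttle and segregase genes, 3 were higher in uterus, 7 were higher in brain and 1 did not pass, with a median of -0.26. Ubqln2, a shuttle that brings ubiquitinated proteins to the 19S particle, was at 238, 239.8, 242 and 231 CPM in brain and 55.3, 53.2, 65.8 and 62.1 in uterus (-2.01 ± 0.07), the one gene of this list past the 2-fold test. Ubqln1 was also higher in brain (-0.84 ± 0.07). Vcp, the segregase that pulls ubiquitinated proteins apart, and its cofactor Ubxn1 were higher in uterus (0.46 ± 0.05 and 0.47 ± 0.06). Ubb and Vcp also have near-identical copies, so their values carry the same doubt as that of Rps27a.

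Replicate animals differed little in these genes. The median coefficient of variation over the 4 libraries was 3.99% in brain and 3.69% in uterus for the ring genes, and 4.29% and 4.12% for the 19S genes. Genes of the same range of mean levels had medians of 4.72% and 6.32%. The assembly chaperones (7.67% and 4.97%) and the alternative caps (7.88% and 5.30%) had higher medians than the ring and 19S genes. The chaperones, Psme1, Psme2 and Psme2b had mean levels below that range, so its medians are no measure for them. Over all tested genes the medians were 7.09% in brain and 9.79% in uterus. Psma8 varied most of the tested members, by 57.5% in brain and 47.5% in uterus.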

How the data were processed

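The authors deposited a table of raw read counts per gene for 8 libraries. Per the labels' protocols these were stranded, ribosomal-RNA-depleted libraries of total RNA. Per the submitters' processing notes, FastQC, HISAT2 2.0.3, featureCounts, edgeR and the genome build GRCm38.p5 were used. The sources used here do not give the gene annotation, nor how strand and reads with several matches were treated. The labels do not say that a number marks the same mouse.

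Counts were analysed in R 4.3.3 with edgeR 4.0.16: TMM scaling, filterByExpr (16074 of 19884 genes tested), quasi-likelihood fit on organ, and Benjamini-Hochberg adjustment over all tested genes at 0.05. glmTreat tested against a 2-fold change, and limma 3.58.1 (voom) gave the 95% intervals. Standard errors came from the fold change and its F statistic. DESeq2 1.42.0 was an alternative, beside other scalings, filters, a replicate block and leaving out each library. Scripts were tested on simulated data. Lengths, coordinates and overlaps came from GENCODE M21 (GRCm38), copies from BLAST+ 2.17.0 of transcripts (at least 98% identity over 150 bases) and promoters from RefSeq. Of 47 members, 11 had such a copy or a shared stretch.

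Full values are given for the members with the highest and lowest change in each role group, the catalytic subunits and members too low to test. From other lists the 2 called genes that differed most in each direction are named, plus Nfe2l1 and Nfe2l2; 1 gene that this rule names is not reported here. Psmb10, Pomp, Psme1, Psme2 and Psme4 were given more fully after their values were seen, as were the pairs Psmc5 with Psmc6 and Psmb7 with Psmb6. Nfya and Nfyc, the other NF-Y subunit genes of their list, were also named after their values were seen. The members and lists were chosen with earlier results of these data known. Paired numbers are treated with the other alternatives at the end.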

Additional observations from a re-analysis of the deposited data

Results flagged for a closer look

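In 8 of the 94 groups of 4 libraries (47 members in 2 organs), 1 library stood far from the other 3, with a gap that took up more of the group's range than Dixon's critical value for 4 samples allows. Chance flags about 1 in 20 such groups. In brain these were Psmc2 in replicate 4 (101 CPM), Psmd1 in replicate 3 (143 CPM) and Psme1 in replicate 1 (26.5 CPM). In uterus they were Psma7 in replicate 3 (117 CPM), Psmb7 in replicate 4 (60.9 CPM), Psmb11 in replicate 3 (0.0254 CPM, which is 1 read), Psmd3 in replicate 4 (203 CPM) and Psmg4 in replicate 3 (11.2 CPM). Psmd3 is the one of these with a wide gap in size, at 203 CPM against 146 to 153 CPM in the other uterus libraries.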

How the results depend on the processing

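With upper-quartile and library-size scaling, 40 members were higher in uterus and 1 higher in brain under each, against 32 and 6, and the median log2 fold change was 0.65 and 0.66. Under each, 10 members passed the 2-fold test toward uterus (against 7) and 14 stood at like levels (against 21). Without a filter on low counts 1 member, Psmb11, passed the 2-fold test toward brain. Bounds of 0.3 left 9 members at like levels. With coding transcript lengths (chosen after seeing the data) 20S over 19S was 1.05 in brain and 1.45 in uterus. Leaving out each library gave 32 to 33 members higher in uterus, 5 to 6 higher in brain, 7 to 8 past the 2-fold test, 21 to 22 at like levels and medians of 0.38 to 0.43, and the gap between the 20S and 19S medians was 0.45 to 0.49.

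Directions turned in the following members, all between -0.12 and 0.04. With upper-quartile and library-size scaling the log2 fold changes were 0.19 and 0.19 for Psmd2, 0.24 and 0.24 for Psmd12, 0.13 and 0.14 for Psmd5, 0.17 and 0.17 for Psmd14, 0.20 and 0.20 for Psmc2, and 0.17 and 0.17 for Psme3. With relative log scaling and DESeq2 they were -0.041 and -0.041 for Psmc3 and -0.00027 and -0.00060 for Psmd11, which upper-quartile and library-size scaling put at 0.26 and 0.26 (Psmc3) and 0.30 and 0.30 (Psmd11), past the test. Psmc3 was at -0.011, -0.0071 and -0.013 without brain replicate 1, brain replicate 4 and uterus replicate 4, in a range of -0.013 to 0.030 over the libraries left out. Psmd12 was at 0.015 with a minimum mean of 10 CPM, and at 0.033, 0.0034 and 0.0067 without brain replicate 1, brain replicate 3 and uterus replicate 3, in a range of -0.050 to 0.033. The cause was not tested.

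Deviations of same-numbered brain and uterus libraries correlated weakly (-0.12, -0.04, 0.12 and 0.10), and the highest correlation was of brain replicate 1 with uterus replicate 2 (0.19). Brain replicates 3 and 4 each correlated best with the uterus library of the same number. Such weak values between unlike organs cannot decide whether a number marks the same mouse. The labels do not say so either, and the numbers were not taken as pairs. With the number as a replicate block, 32 members were higher in uterus, 5 higher in brain, 7 past the 2-fold test and 21 at like levels, with a median of 0.40. Psmd5 was the call lost (-0.12, adjusted p = 0.092, edgeR). Depth limits Psma8 and Psmb11, with at most 101 reads per library.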
